A study of Mus musculus with 15 samples.

Results

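Calcium buffers and calmodulins are described through 6 genes: *Calb1*, *Calb2*, *Pvalb*, *Calm2*, *Calm3* and *Pcp4*. Their rows were found by name, as those whose Ensembl mouse gene ID carries one of these symbols. The rule uses no measured value, but the genes were proposed with earlier results of these data known. All 6 were found among the 38561 genes of the count tables, and all 6 were among the 14293 genes that passed the filter on low counts. Calmodulin RNA from any gene other than *Calm2* and *Calm3* was not analysed here.

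RNA was sequenced from mouse Purkinje cells (PCs), the output neurons of the cerebellar cortex, cut from tissue by laser capture microdissection at postnatal days 0, 4, 8, 14 and 21 (P0, P4, P8, P14 and P21). Each time point had 3 biological replicates, which makes 15 samples. The mice were males of a single strain, spelled C56/BL6 in the labels and C57/BL6 in the methods, with no treatment or mutation given, so that the groups differed in age. The capture differed with age: samples from P4 on were built from 1000 separately cut cell bodies, those of P0 from cell groups. Age and the kind of capture therefore cannot be told apart in any comparison with P0.

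Calcium signals in a PC come from channels in the membrane and from internal stores, and EF-hand proteins bind the calcium that enters the cytosol. Some EF-hand proteins are buffers that shorten and confine the signal. Calbindin, made from *Calb1*, and parvalbumin, made from *Pvalb*, are the classic buffers of PCs, while calretinin, made from *Calb2*, is best known in the cerebellum from granule neurons and unipolar brush cells. Calmodulin is a sensor that passes the signal on to kinases, phosphatases and channels; *Calm2* and *Calm3* are separate genes for the same protein. *Pcp4* makes a small IQ-motif protein that binds calmodulin and changes how quickly calmodulin exchanges calcium.

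In the GRCm38 build the genes lie on 6 chromosomes. *Calb1* (ENSMUSG00000028222) spans chr4:15881264-15908064 on the forward strand and *Calb2* (ENSMUSG00000003657) spans chr8:110137502-110168210 on the reverse strand. *Pvalb* (ENSMUSG00000005716) spans chr15:78191114-78206400 on the reverse strand. *Calm2* (ENSMUSG00000036438) spans chr17:87433412-87446935 and *Calm3* (ENSMUSG00000019370) spans chr7:16915379-16924114, both on the reverse strand. *Pcp4* (ENSMUSG00000090223) spans chr16:96467606-96525793 on the forward strand, where its span overlaps that of *Igsf5*, which was not analysed here. A stretch at least 95% identical to *Pcp4* lies in 1 protein-coding gene that is not in the count tables. The counts cover whole genes and do not separate transcripts or start sites.

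The starts of *Calm3* and *Pvalb* are printed because these genes had the smallest and the largest differences over time of the 6. Each window runs from 250 bases before the start to 50 bases after it, 5′ to 3′ on the gene's own strand, from RefSeq on GRCm38.p6, with CG dinucleotides in capitals. The *Calm3* window, at a RefSeq start that lies inside the gene span given above, is chr7:16923983-16924282. The *Pvalb* window, at the annotated start of the gene, is chr15:78206351-78206650.
Calm3 start: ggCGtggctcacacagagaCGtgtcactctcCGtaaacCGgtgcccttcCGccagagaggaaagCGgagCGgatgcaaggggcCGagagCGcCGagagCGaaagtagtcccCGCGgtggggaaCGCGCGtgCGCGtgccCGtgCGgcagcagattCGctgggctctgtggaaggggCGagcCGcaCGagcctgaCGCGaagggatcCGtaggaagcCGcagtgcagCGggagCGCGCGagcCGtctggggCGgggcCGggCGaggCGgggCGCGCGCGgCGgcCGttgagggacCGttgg
Pvalb start: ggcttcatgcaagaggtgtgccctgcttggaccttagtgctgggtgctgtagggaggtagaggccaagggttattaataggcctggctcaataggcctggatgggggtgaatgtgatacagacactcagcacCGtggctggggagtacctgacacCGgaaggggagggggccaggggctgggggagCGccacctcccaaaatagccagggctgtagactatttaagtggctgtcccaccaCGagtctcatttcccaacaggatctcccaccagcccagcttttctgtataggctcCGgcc
The *Calm3* window held 44 CG dinucleotides, more than 97.8% of 32851 RefSeq promoter windows of the same length, and the *Pvalb* window held 5, where the median window held 7. A second *Pvalb* window, at an inner start (chr15:78204188-78204487), held 25. The *Pcp4* window, chr16:96467356-96467655, held 6. The letters TATAAA and AGGTCA were searched on both strands and counted separately even where they shared a base. TATAAA was in none of these 4 windows and in 13.6% of all windows. AGGTCA was found 1 time, on the reverse strand before the start of *Pcp4*, and is in 16.3% of all windows. These are matches of letters only. *Calb1*, *Calb2* and *Calm2* had no window in the RefSeq table.

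Counts on genes ranged from 3409371 to 7814951 a sample, with group medians between 4487339 and 5569339. The PC markers *Pcp2*, *Car8*, *Itpr1* and *Ppp1r17*, from which the 6 genes were left out, summed to 2526 ± 461 CPM (counts scaled to the effective library size, TMM; SD, n = 3) in the P0 samples and to 27817 ± 2068 CPM in the P21 samples, with 7304 ± 1873, 11830 ± 979 and 20294 ± 1619 CPM at the ages between. All 4 of these markers rose with day, and their sum was lowest at P0. *Pcp2*, *Car8* and *Itpr1* had means of 1017, 1331 and 177 CPM at P0. *Ppp1r17* was near absent at first, with means of 0.988 CPM at P0 and 5.43 CPM at P4. Markers of Bergmann glia and astrocytes summed to 4686, 7301, 9305, 7018 and 4580 CPM from P0 to P21, which was above the PC markers at P0. Of these 8 glial markers 4 rose with day and 1 fell. *Fabp7*, the largest part of the sum at P8 with 4662 CPM, was at 186 CPM at P21. Markers of oligodendrocytes rose from 22.4 CPM at P0 to 569 CPM at P21. In samples such as these, fewer cells of a type and less RNA per cell cannot be told apart.

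**Figure D1:**
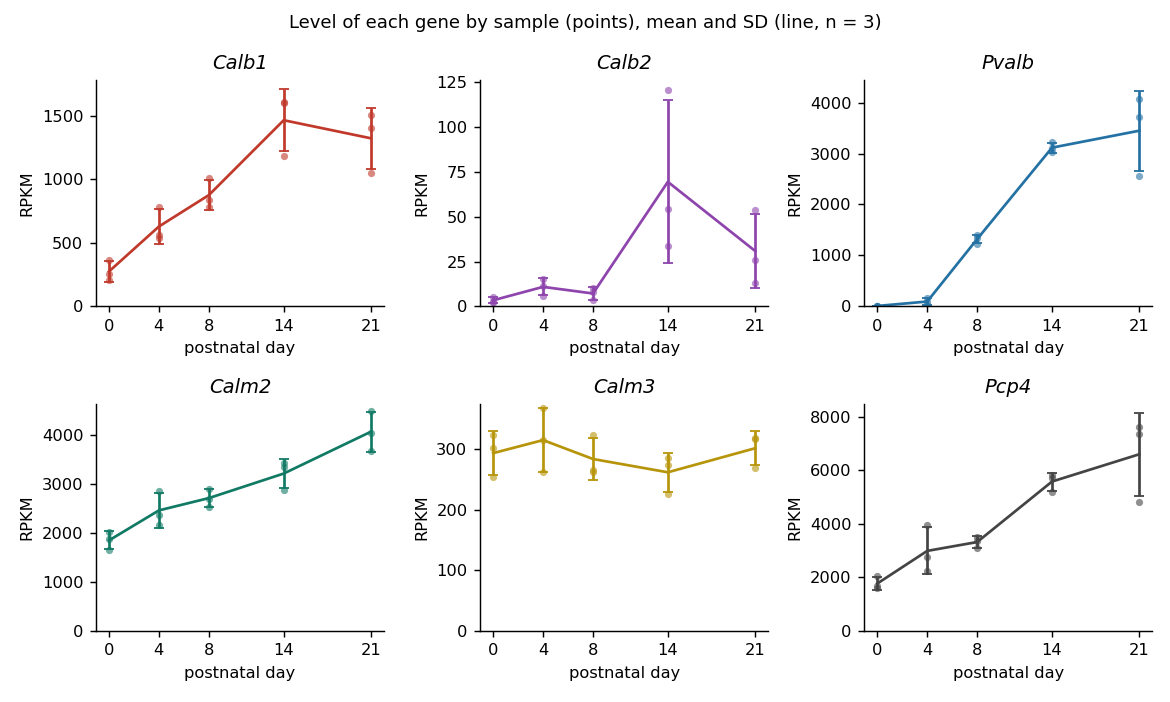
Level of each of the 6 genes, in RPKM, that is reads scaled to exon length and to the counts on genes, against postnatal day. Points are the 15 samples and lines give the mean with its SD (n = 3 a time point), each panel having its own scale from 0. The means of *Pvalb* go from 9.20 to 3448 RPKM and those of *Calm3* stay between 262 and 315 RPKM.

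All of the 6 genes but *Calm3* changed over the time points and rose with age, and *Calm3* passed neither test. In edgeR's quasi-likelihood test of any difference among the time points, 5 of the 6 genes passed a Benjamini-Hochberg adjusted p of 0.05, beside 19.3% of all genes tested. By mean CPM, *Calb1*, *Pcp4*, *Calm2*, *Pvalb* and *Calm3* ranked 13, 14, 15, 42 and 143 among the genes tested, and *Calb2* ranked 4541. The shares of all genes given here are not matched for level. In the test of a trend with postnatal day, the same 5 genes rose and none fell, beside 12.1% of all genes rising. The median slope of the 6 genes was 0.11 log2 units a day and that of all genes tested was -0.0077. Together the 6 genes took 0.658% ± 0.0725 of the counts on genes at P0 and 2.35% ± 0.301 at P21 (SD, n = 3), with 1.06% ± 0.213, 1.37% ± 0.0717 and 2.15% ± 0.139 at the ages between. RPKM values are scaled to all counts on genes, whereas tests and CPM values use TMM scaling, which sets P21 higher against P0 by a further 0.36 on the log2 scale.

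*Calb1* rose with age, with its called step between P0 and P4 and its highest mean at P14. Its RPKM was 204, 256 and 366 in the P0 samples, 564, 784 and 538 at P4, and 783, 835 and 1009 at P8. It was 1609, 1184 and 1601 at P14 and 1509, 1407 and 1051 at P21. Every P4 sample lay above every P0 sample and every P14 sample above every P8 sample, while P4 overlapped P8 and P14 overlapped P21. From P0 to P21 the means were 275 ± 82.6, 629 ± 135, 876 ± 119, 1465 ± 243 and 1322 ± 240 RPKM (SD, n = 3), which is a 5.32-fold range. The slope was 0.12 ± 0.018 log2 CPM a day (SE), with an adjusted p of 4.21e-05, and the adjusted p for any change was 3.62e-06 (edgeR).

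Between P0 and P4 the *Calb1* difference was 1.30 ± 0.23 on the log2 CPM scale (SE; edgeR adjusted p = 0.00742). From P4 to P8 it was 0.48 ± 0.23 (edgeR adjusted p = 0.433). From P8 to P14 it was 0.89 ± 0.23 and missed the threshold in edgeR (adjusted p = 0.0508), though it passed in DESeq2 (adjusted p = 0.00679) and limma-voom (adjusted p = 0.00712). From P14 to P21 it was -0.05 ± 0.23 (edgeR adjusted p = 1).

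*Pvalb* had the largest rise of the 6 genes, and both of its called steps came by P8. Its counts were 50, 18 and 62 in the P0 samples, which is 10.3, 3.85 and 13.5 RPKM. It was at 164, 88.3 and 37.1 RPKM in the P4 samples and at 1227, 1392 and 1345 RPKM in the P8 samples. It reached 3101, 3025 and 3220 RPKM at P14 and 3712, 4070 and 2562 RPKM at P21. Each time point up to P14 lay wholly above the one before it, and P14 overlapped with P21. The P4 samples spread widely, from 37.1 to 164, whereas those of P8 and P14 lay close together.

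From P0 to P21 the *Pvalb* means were 9.20 ± 4.91, 96.3 ± 63.6, 1321 ± 85.1, 3115 ± 98.6 and 3448 ± 788 RPKM (SD, n = 3), a 375-fold range. The slope of 0.40 ± 0.073 log2 CPM a day (SE) was above that of 99.6% of genes tested (edgeR adjusted p = 4.39e-04 for the trend and 2.88e-08 for any change). It was 0.24 in limma-voom and 0.26 without the P0 samples, and passed in both. The step from P0 to P4 was 3.47 ± 0.46 on the log2 CPM scale (SE; edgeR adjusted p = 7.73e-04, limma-voom adjusted p = 0.195). The step from P4 to P8 was 3.80 ± 0.44 (edgeR adjusted p = 2.37e-04). From P8 to P14 the difference was 1.39 ± 0.40 with an adjusted p of 0.0826 in edgeR, 0.0109 in DESeq2 and 2.09e-04 in limma-voom. From P14 to P21 it was 0.25 ± 0.39 (edgeR adjusted p = 1). *Pvalb* is also made by basket and stellate interneurons of the molecular layer, and their markers *Adam11*, *Slit1*, *Lypd6*, *Sorcs3*, *Tfap2b* and *Kit* summed to means of 131, 238, 162, 153 and 123 CPM from P0 to P21, with 0 of the 5 markers tested rising and 1 falling. *Slit1* was at most 1.01 CPM on average at any age, and *Adam11* stood at 24.2 CPM at P0 and 63.3 CPM at P21. *Lypd6* had means of 6.88 and 11.6 CPM at these ages, while *Tfap2b* had 61.4 and 25.9 CPM. *Kit* was at 36.9 CPM at P0, 119 CPM at P4 and 19.2 CPM at P21. *Sorcs3* was at 1.04, 24.9 and 3.01 CPM at the same 3 ages. The part of these cells in the *Pvalb* values was not tested.

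**Figure D2:**
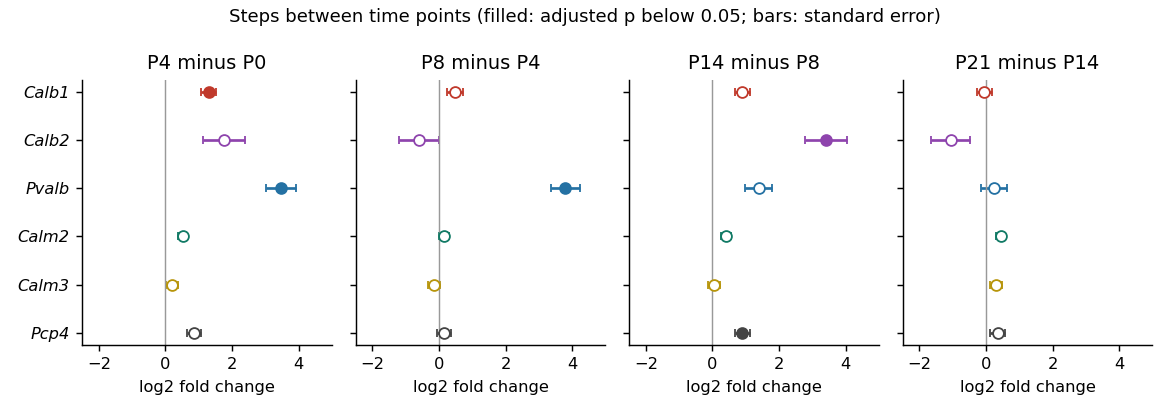
Log2 fold change of each gene in the 4 steps between neighbouring time points, with its standard error, from the edgeR fit on 15 samples. Filled points have an adjusted p below 0.05: *Calb1* and *Pvalb* in the first step, *Pvalb* in the second, *Calb2* and *Pcp4* in the third, and none in the last.

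*Calb2* was the lowest of the 6 genes and spread widely within time points. Its counts were 20, 42 and 19 at P0, or 2.45, 5.37 and 2.47 RPKM. It was at 15.4, 11.5 and 5.86 RPKM at P4 and at 10.1, 3.37 and 8.16 RPKM at P8. It then stood at 33.4, 120 and 54.4 RPKM at P14 and at 13.1, 25.7 and 53.7 RPKM at P21. Every P14 sample lay above every P8 sample, and replicate 2 of P14 was the highest of the 15, while P14 and P21 overlapped. The means were 3.43 ± 1.68, 10.9 ± 4.78, 7.21 ± 3.47, 69.4 ± 45.4 and 30.9 ± 20.8 RPKM from P0 to P21 (SD, n = 3), a 20.2-fold range with its top at P14.

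*Calb2* changed over the time points (edgeR adjusted p = 2.06e-04) and rose with day by 0.21 ± 0.046 log2 CPM a day (SE; edgeR adjusted p = 0.00210), a call that was lost without the P0 samples (edgeR adjusted p = 0.0561). Its step from P8 to P14 was 3.41 ± 0.64 on the log2 CPM scale (SE; edgeR adjusted p = 0.00768), and 2.77 without replicate 2 of P14 (edgeR adjusted p = 0.0481). The difference was 1.76 ± 0.62 from P0 to P4 (edgeR adjusted p = 0.186), -0.59 ± 0.60 from P4 to P8 (0.821) and -1.06 ± 0.59 from P14 to P21 (0.786).

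**Figure D3:**
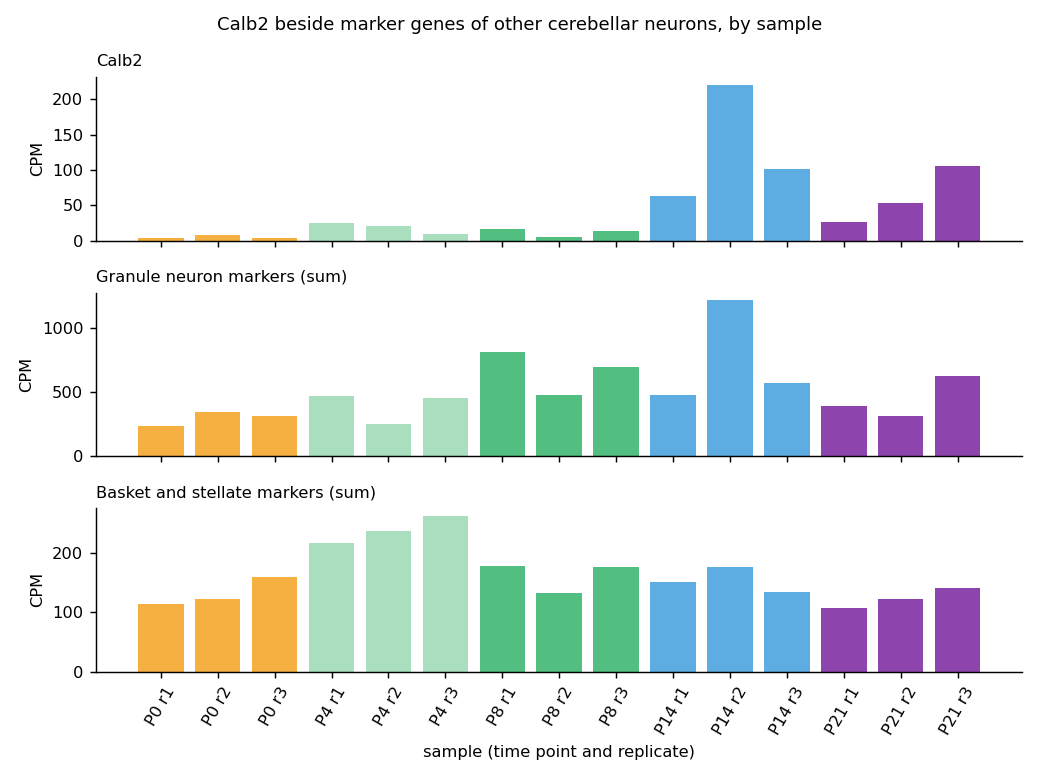
*Calb2* (top), the summed granule neuron markers (middle) and the summed basket and stellate markers (bottom) in CPM for each of the 15 samples, bars starting at 0. Replicate 2 of P14 has the tallest bar for *Calb2*, 220 CPM, and for the granule neuron markers, 1219 CPM, and replicate 3 is the highest of P21 in both.

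Within each age, the sample with the most *Calb2* was also the sample with the highest sum of granule neuron markers, while the order of the other samples differed between the 2 at P4 and P21. The granule neuron markers *Gabra6*, *Cbln1*, *Cbln3*, *Neurod1* and *Etv1*, of which 3 of 5 rose with day and 0 fell, summed to 478, 1219 and 569 CPM in the P14 samples, where *Calb2* was at 63.5, 220 and 101 CPM. In the P21 samples the sum was 394, 314 and 629 CPM, where *Calb2* was at 26.0, 52.7 and 105 CPM. In the P8 samples the sum was 815, 474 and 698 CPM and *Calb2* was at 16.7, 5.72 and 13.7 CPM. In the P4 samples the sum was 472, 251 and 452 CPM and *Calb2* was at 25.02, 20.2 and 9.42 CPM. In the P0 samples the sum was 234, 346 and 315 CPM and *Calb2* was at 3.85, 8.33 and 3.85 CPM. The mean sum was 663 ± 173 CPM at P8 and 755 ± 404 CPM at P14 (SD, n = 3), which overlap, while *Calb2* stood at 12.1 ± 5.69 and 128 ± 81.7 CPM. *Gabra6*, a marker of mature granule neurons, was at 4.25 CPM at P8 and 103 CPM at P14. *Cbln1*, *Cbln3* and *Etv1* also had higher means at P14, at 122, 87.4 and 80.3 CPM beside 67.2, 5.34 and 35.9 CPM at P8. *Neurod1*, the largest part of the sum at P8, went the other way, from 550 to 363 CPM.

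Markers of unipolar brush cells and Golgi cells had sums of at most 43.3 CPM in any sample. The unipolar brush cell marker *Eomes* had means of 21.8, 4.76, 5.27, 8.62 and 10.02 CPM from P0 to P21, and *Lmx1a* was at 0 in every sample from P4 on. At P0 *Eomes* was highest in replicate 2, at 43.1 CPM, which was also the P0 sample with the most *Calb2*. At P8, P14 and P21 the same sample was also highest in both, by little in the marker sum at P14 and P21. At P4 this did not hold: replicate 1, with the most *Calb2*, had a unipolar brush cell sum of 0, and replicate 2 had 14.1 CPM. The Golgi cell markers *Grm2*, *Slc6a12*, *Slc6a5* and *Lgi2* summed to between 18.4 and 41.8 CPM in the P14 samples and to between 4.20 and 20.1 CPM in the P8 samples, with 0 of the 3 tested passing the trend test. The part of these cells in the *Calb2* values was not tested.

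*Calm2* was high from P0 on and had the smallest slope of the 5 rising genes, though above that of 84.8% of genes tested. Its RPKM was 1649, 2010 and 1876 at P0, 2167, 2849 and 2356 at P4, and 2531, 2901 and 2691 at P8. It was 3419, 2866 and 3342 at P14 and 3668, 4040 and 4485 at P21. Every P4 sample lay above those of P0 and every P21 sample above those of P14, while P8 overlapped with P4 and with P14. In CPM, P8 and P14 did not overlap, with 3528 to 4151 CPM at P8 and 4413 to 5474 CPM at P14. The means of 1845 ± 182, 2457 ± 352, 2708 ± 186, 3209 ± 299 and 4064 ± 409 RPKM (SD, n = 3) span 2.20-fold.

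The slope of *Calm2* was 0.067 ± 0.0072 log2 CPM a day (SE), with a small error next to its size (edgeR adjusted p = 1.63e-06 for the trend and 1.63e-05 for any change). No single step passed in edgeR. The differences were 0.51 ± 0.15 from P0 to P4 (edgeR adjusted p = 0.0990), 0.15 ± 0.15 from P4 to P8 (0.820), 0.40 ± 0.15 from P8 to P14 (0.211) and 0.44 ± 0.15 from P14 to P21 (0.459). DESeq2 and limma-voom called the first of them, with adjusted p of 0.0430 and 0.0457. The processed pseudogenes *Gm7308* and *Gm15720* carry stretches at least 95% identical to *Calm2*, so reads could be split among them, and their summed counts over all samples were 12997 beside 337893 for *Calm2*.

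*Calm3* was the exception. Its RPKM was 254, 303 and 324 at P0, 263, 367 and 315 at P4, and 263, 324 and 265 at P8. It was 286, 274 and 225 at P14 and 319, 317 and 269 at P21. Each time point overlapped with the next, and the means of 294 ± 35.8, 315 ± 52.3, 284 ± 34.5, 262 ± 32.1 and 302 ± 28.1 RPKM (SD, n = 3) lay within 1.2-fold of each other.

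The slope of *Calm3* was 0.014 ± 0.0082 log2 CPM a day (SE; edgeR adjusted p = 0.233), and the adjusted p for any change was 0.437. Its 4 steps lay between -0.14 ± 0.18 and 0.30 ± 0.18 (SE), with edgeR adjusted p from 0.699 to 0.980. Where each of the 15 samples was left out in turn, its adjusted p for any change stayed between 0.322 and 0.707.

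*Pcp4* rose with age, and its called step fell between P8 and P14. Its RPKM was 1662, 2051 and 1584 at P0, 2747, 3956 and 2251 at P4, and 3343, 3521 and 3082 at P8. It was 5192, 5818 and 5716 at P14 and 7604, 7363 and 4819 at P21. Every P4 sample lay above those of P0 and every P14 sample above those of P8, and replicate 3 of P21 fell below all P14 samples. The means of 1766 ± 250, 2984 ± 877, 3315 ± 221, 5575 ± 336 and 6595 ± 1543 RPKM (SD, n = 3) span 3.74-fold.

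The slope of *Pcp4* was 0.10 ± 0.011 log2 CPM a day (SE; edgeR adjusted p = 1.47e-06 for the trend and 8.11e-06 for any change). The step from P8 to P14 was 0.90 ± 0.22 on the log2 CPM scale (SE; edgeR adjusted p = 0.0340). Leaving out any one of the 6 samples of these ages kept the difference between 0.86 and 0.96, while the edgeR adjusted p, with fewer samples, lay between 0.0813 and 0.120. The difference from P0 to P4 was 0.87 ± 0.22 and narrowly missed (edgeR adjusted p = 0.0513; 0.0139 in DESeq2 and 0.0851 in limma-voom). The other differences were 0.15 ± 0.21 from P4 to P8 (edgeR adjusted p = 0.890) and 0.35 ± 0.21 from P14 to P21 (0.857).

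By step, 2 of the 6 genes were higher at P4 than at P0 in edgeR (*Calb1* and *Pvalb*), beside 1.74% of genes tested. From P4 to P8, 1 was higher (*Pvalb*), beside 0.882% of genes tested. From P8 to P14, 2 were higher (*Calb2* and *Pcp4*), beside 1.29% of genes tested. From P14 to P21 none passed in edgeR, DESeq2 or limma-voom, beside 0.063% of genes tested, and *Calm2* alone had an unadjusted p below 0.05 in edgeR (0.00943). None of the 6 passed the test as lower at the later age in any step. The step from P8 to P14 depended on the tool and on the filter. DESeq2 and limma-voom each called 4 of the 6 genes higher, beside 417 and 386 of all genes. edgeR with no filter also called 4, beside 213 of all genes, where the filtered edgeR fit called 185.

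Replicate 3 of P21 was the lowest of its age in *Calb1*, *Pvalb*, *Calm3* and *Pcp4* and the highest in *Calm2* and *Calb2*. In the same sample the PC markers summed to 25624 CPM, beside 28097 and 29731 CPM in the other P21 samples, and the oligodendrocyte markers to 845 CPM, beside 396 and 468 CPM. Its sums were also the highest of its age for Bergmann glia and astrocytes, 5464 CPM beside 4458 and 3817, for granule neurons, 629 CPM, and for basket and stellate interneurons, 141 CPM beside 106 and 122. Their part in its values was not tested. Without this sample the slopes were 0.14 for *Calb1*, 0.46 for *Pvalb* and 0.12 for *Pcp4*, and all 5 genes still rose with day (edgeR).

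**Figure D4:**
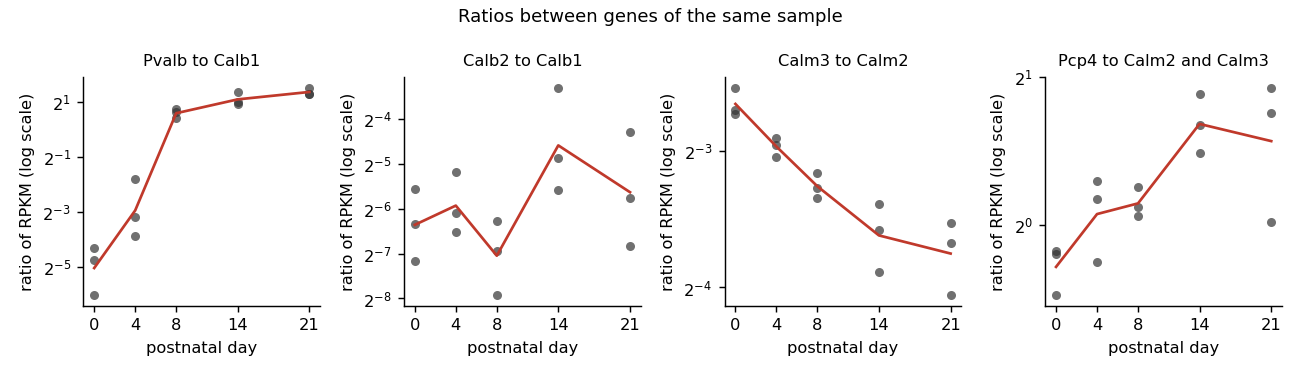
Ratio of RPKM between members within each sample, on a log scale, against postnatal day. Points are samples and the line joins the means of the log2 ratios (n = 3). From P0 to P21 the mean log2 ratio of *Pvalb* to *Calb1* goes from -5.02 to 1.37 and that of *Calm3* to *Calm2* from -2.65 to -3.75, and the points of P21 spread widely for *Calb2* to *Calb1* and for *Pcp4* to *Calm2* and *Calm3*.

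Ratios within a sample need no scaling to library size, and 4 were compared over the time points by an exact permutation test of the F statistic, over all 1401400 assignments of the 15 samples to groups of 3. Low counts still limit them. With 5 counts added in place of 0.5, the log2 difference between P21 and P0 was 6.22 beside 6.39 for *Pvalb* to *Calb1*. For *Calb2* to *Calb1* it was 0.52 beside 0.73. Per exon length, *Pvalb* changed places with *Calb1*. The ratio of *Pvalb* to *Calb1* was 0.0507, 0.0155 and 0.0372 at P0, 0.290, 0.113 and 0.0691 at P4, and 1.57, 1.67 and 1.33 at P8. It was 1.93, 2.55 and 2.01 at P14 and 2.46, 2.89 and 2.44 at P21. All samples up to P4 lay below 1 and all later samples above it. The ratio differed among the ages (F = 61.1, exact permutation p = 2.14e-06, adjusted over the 4 ratios 8.56e-06), a test that does not address the crossing of 1. That crossing depends on the exon lengths used, 4846 bases for *Calb1* and 1041 for *Pvalb*. In counts not scaled to length, *Calb1* was above *Pvalb* in every sample, with 24928 and 13174 in replicate 1 of P21.

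The balance of the calmodulin genes moved as well, since *Calm2* rose and *Calm3* did not pass. From P0 to P21, the RPKM of *Calm3* stood at 0.159 ± 0.0118, 0.128 ± 0.00629, 0.105 ± 0.00656, 0.0823 ± 0.0141 and 0.0751 ± 0.0137 of that of *Calm2* (SD, n = 3). Each time point up to P14 lay wholly below the one before it, and P14 overlapped with P21 (F = 18.7, exact permutation p = 8.42e-05, adjusted p = 1.68e-04).

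*Pcp4* gained on the RNA of *Calm2* and *Calm3* in the test on all samples. Its ratio to *Calm2* and *Calm3* together was 0.873, 0.887 and 0.720 at P0, 1.13, 1.23 and 0.843 at P4, and 1.2, 1.09 and 1.04 at P8. It was 1.40, 1.85 and 1.60 at P14 and 1.91, 1.69 and 1.01 at P21 (F = 5.82, exact permutation p = 0.0140, adjusted p = 0.0187). Every P14 sample lay above every earlier sample, and replicate 3 of P21 lay among the P4 samples. This call was lost without the P0 samples (exact permutation test, adjusted p = 0.103) and without replicate 3 of P0 alone (adjusted p = 0.0576).

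The ratio of *Calb2* to *Calb1* had means from 0.00841 ± 0.00445 at P8 to 0.0521 ± 0.0434 at P14 (SD, n = 3). Its time points overlapped widely (F = 2.58, exact permutation p = 0.0983, adjusted p = 0.0983).

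Per length, *Calm2* and *Pcp4* had the highest means at every age. At P0 *Calm2* and *Pcp4* overlapped at the top, *Calm3* and *Calb1* overlapped next, and *Pvalb* and *Calb2* overlapped at the bottom. At P4 *Pcp4* and *Calm2* still overlapped, and below them *Calb1*, *Calm3*, *Pvalb* and *Calb2* followed with no overlap between neighbours. At P8 the order was *Pcp4*, *Calm2*, *Pvalb*, *Calb1*, *Calm3* and *Calb2*, again with no overlap between neighbours. At P14 and P21 the order was the same, except that *Calm2* and *Pvalb* overlapped.

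Over the 15 samples, log2 CPM of *Pvalb* and *Calb1* had a Pearson r of 0.95, the highest among the 6 genes, and *Calm3* and *Calb2* had the lowest, 0.19. These samples share their ages and libraries, so the values are descriptions. Among 9726 other genes with a mean of at least 10 CPM, those most like *Calb1* were *Sh3gl2*, for the endocytic protein endophilin A1 (r = 0.98), *Apip*, for an enzyme of methionine salvage (r = 0.98), and *Glrb*, for the beta subunit of the glycine receptor (r = 0.97). Those most like *Pvalb* were *Eps8l2*, for an actin-binding protein, *Aldh1a1*, for an enzyme of retinoic acid synthesis, and *Casq2*, for the calcium store protein calsequestrin (each r = 0.99).

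*Calm2* was most like its own pseudogene *Gm7308* (r = 0.98), then *Ndrg4* (r = 0.98) and *Atp2a2*, which makes the calcium pump of the endoplasmic reticulum (r = 0.98). *Atp2a2* was also near *Pcp4* (r = 0.97), as were *Fkbp2*, for an isomerase of the endoplasmic reticulum (r = 0.97), and the pseudogene *Gm10250* (r = 0.97). *Calb2* was most like *Tspan14*, for a tetraspanin (r = 0.93), *Trf*, for transferrin (r = 0.92), and *Scg3*, for a granin of secretory vesicles (r = 0.91). *Calm3* had no close match, with the pseudogenes *Gm13736* (r = 0.83) and *Gm13340* (r = 0.81) and the gene *Mbip* (r = 0.81) nearest.

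**Figure D5:**
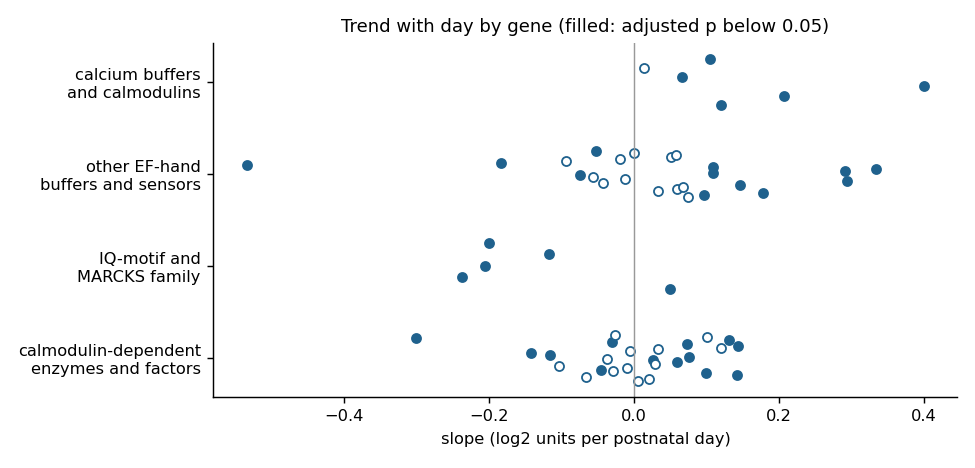
Slope with postnatal day, in log2 CPM a day, of the 6 genes and of the genes of 3 related lists, each point being a gene and filled points having an adjusted p below 0.05 (edgeR). Among the 6 genes 5 points are filled, all to the right of 0, whereas the related lists have filled points on both sides.

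Related genes went both ways. Of 27 other EF-hand buffers and sensors, 24 were tested, of which 8 rose with day, 4 fell and 12 did not pass, beside 12.1% of all genes rising and 14.1% falling. Their median slope was 0.054 log2 CPM a day, and 12 passed the test of any change, beside 19.3% of all genes. *Hpcal1*, a neuronal calcium sensor, rose from 35.8 ± 23.0 CPM at P0 to 1995 ± 391 at P21 (SD, n = 3; slope 0.29 ± 0.034, SE; edgeR adjusted p = 3.86e-06). *Cabp7*, a calmodulin-like protein of membranes, rose from 0.926 to 118 CPM (edgeR adjusted p = 7.00e-05). *Ncs1*, another calcium sensor, fell from 393 ± 87.0 to 148 ± 45.0 CPM (edgeR adjusted p = 7.61e-05), and *Necab1* fell to 1.56 CPM from 33.4 CPM at P4 (edgeR adjusted p = 0.0140).

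Genes for other small calmodulin-binding proteins mostly fell. Of 5 IQ-motif and MARCKS family genes, 1 rose and 4 fell, beside 12.1% of all genes rising and 14.1% falling, with a median slope of -0.20 log2 CPM a day. *Pcp4l1*, the closest relative of *Pcp4*, rose from 83.2 ± 22.6 to 187 ± 20.7 CPM between P0 and P21 (SD, n = 3; edgeR adjusted p = 0.00152). *Gap43*, a growth cone protein, fell from 1041 ± 75.5 to 48.0 ± 26.9 CPM (edgeR adjusted p = 1.96e-07). *Nrgn*, for neurogranin, fell from 14.6 ± 15.8 to 0.779 ± 1.35 CPM (edgeR adjusted p = 0.0210), with SDs above its means. It did not pass the test of any change (edgeR adjusted p = 0.143).

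Of 27 calmodulin-dependent enzymes and factors, 26 were tested, of which 8 rose, 5 fell and 13 did not pass, beside the same shares of all genes, 12.1% and 14.1%, with a median slope of 0.013 log2 CPM a day. *Itpka*, a kinase of inositol trisphosphate, rose from 22.8 ± 18.6 CPM at P0 to 316 ± 62.2 at P21 (SD, n = 3; edgeR adjusted p = 0.00215). *Camk2a*, the alpha subunit of calmodulin kinase II, rose from 23.5 ± 14.2 to 202 ± 20.8 CPM (edgeR adjusted p = 2.05e-05). *Dapk1*, the death-associated kinase, fell from 143 ± 16.7 to 2.54 ± 1.11 CPM (edgeR adjusted p = 5.80e-07). *Pde1c*, a calmodulin-dependent phosphodiesterase, stayed between 492 and 571 CPM up to P8 and then stood at 92.3 CPM at P14 and 99.0 CPM at P21 (edgeR adjusted p = 2.72e-04 for the trend).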

How the data were processed

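The authors trimmed paired-end reads (FASTX Toolkit, cutadapt 1.2.1), aligned them to GRCm38/mm10 with GSNAP, kept uniquely mapping reads and counted those lying wholly inside genes with HTSeq 0.5.3p9 in its intersection-strict mode. The versions are those of the submitters' processing notes and the methods, and the annotation release and strand setting used for counting are not given in the sources used here. The deposited values are raw counts per Ensembl gene, 1 table a sample, and reads outside genes or ambiguous made up 18.2% to 31.0% of a table and were left out. Strict counting drops reads that reach past annotated exons, so levels depend on the annotation.

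Genes were fitted with edgeR 4.0.16 (R 4.3.3; filterByExpr by time point, TMM, quasi-likelihood F tests on 15 samples), with Benjamini-Hochberg adjustment over all 14293 genes tested and calls at 0.05. Standard errors were derived from the fold change and its F statistic. RPKM used the summed exon length of GENCODE gene models on GRCm38 and total counts on genes, and the log2 CPM used for likeness had a prior count of 2. Ratios had 0.5 counts added to each gene. The fits were tested on simulated data. Alternatives were DESeq2 1.42.0, limma-voom (limma 3.58.1), DESeq2 size factors, no filter, a replicate block, log2(day + 1), leaving out P0 or 1 sample, TMM-scaled RPKM, and for ratios 5 added counts or variance-stabilized values. Named genes are the 6 genes, the 3 genes most alike to each, and from each related list the 2 called genes with the largest slope in each direction among those reaching 10 CPM. The 6 genes, lists and markers were chosen with earlier results of these data known. Replicates are biological by the methods and differed by more than sampling noise.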

Additional observations from a re-analysis of the deposited data

How the results depend on the processing

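The number of the 6 genes called for any change was 5 under every alternative, and the number rising with day was 5 except without the P0 samples, where it was 4. Steps were less stable. The count of all genes called for any change was 4224 in DESeq2 beside 2753 in edgeR. From P0 to P4, DESeq2 called 615 genes higher and 4 of the 6, beside 248 and 2 in edgeR. From P4 to P8, DESeq2 called 345 genes higher and limma-voom 202, beside 126. From P8 to P14 they called 417 and 386, beside 185, and each called 4 of the 6 genes, as did edgeR with no filter (4), beside 2. From P14 to P21 the count was 14 with no filter, 57 in DESeq2 and 42 in limma-voom, beside 9. The cause of these differences was not tested.

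With 1 sample left out, genes higher ranged from 65 (without replicate 3 of P8) to 159 from P4 to P8, from 89 (without replicate 3 of P14) to 236 from P8 to P14, and from 2 (without replicate 3 of P14) to 11 from P14 to P21. Of the 6 genes, 1 to 4 were higher from P8 to P14: 1 without replicate 1, 2 or 3 of P8 or replicate 1 or 3 of P14, and 4 without replicate 1 or 3 of P4. The log2 difference of the *Pcp4* ratio between P21 and P0 was 0.85 and ranged from 0.67 to 1.13, and it was 0.49 between P21 and P4 without the P0 samples, no longer past the threshold (adjusted p = 0.103), as without replicate 3 of P0 (0.75; adjusted p = 0.0576). The fewer samples are part of each of these settings.

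With the replicate number as a replicate block, 2552 genes were called for any change, 1723 rose and 1911 fell, and 5 of the 6 genes rose; *Pcp4* then also passed from P0 to P4 (edgeR adjusted p = 0.0270), and no other call of the 6 genes changed. Same-numbered samples share only a number: their deviations from the group means had a mean r of -0.0033 over 30 pairs (range -0.032 to 0.047), and 3 of 15 samples correlated best with their own number. Of 768 values of single genes under an alternative, 732 kept their side of the threshold or moved by less than an SD, 23 came to pass, 8 no longer passed and 5 levels moved. No slope or difference that passed changed sign, while 8 of 612 values, of differences that did not pass (*Calb1* from P14 to P21, *Calm3* from P4 to P8 and from P8 to P14, *Pcp4* from P4 to P8), changed sign with 1 sample left out. The ratio of *Calb2* to *Calb1*, which did not pass, also changed sign with variance-stabilized values (-0.54). Depth limits *Calb2* and *Pvalb* at P0, where they had at most 62 counts a sample.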
